A study of Mus musculus with 11 samples.

Results

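The levels of 10 transcription factors that act around zygotic genome activation were followed in mouse embryos. They were Duxf3, Zfp352, Nr5a2, Dppa2, Dppa4, Nfya, Klf4, Klf5, Klf17 and Spz1. The genes were taken by symbol from a table of 49585 genes, and each of the 10 symbols had 1 entry. The embryos were C57BL/6 and were made by intracytoplasmic sperm injection (ICSI), in which a mature sperm is placed in the oocyte, or by round spermatid injection (ROSI), in which the paternal genome comes from a haploid male germ cell that has not yet become a sperm. RNA was sequenced from 2 libraries of ROSI zygotes, 3 of ICSI zygotes, 3 of ROSI 2-cell embryos and 3 of ICSI 2-cell embryos. After ROSI, though not after ICSI, embryos first spent 1 to 2 h in CZB medium without calcium that held 5 mM SrCl2 as the activating agent. Both kinds were then grown in KSOM. The kind of paternal cell and the activation cannot be told apart. Times of collection, numbers of embryos per library and batches are not given in the sources used here.

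A fertilised mouse oocyte runs at first on RNA that the oocyte stored. Most of that RNA is destroyed while the embryo's own genome becomes active, in a minor wave in the zygote and a major wave at the 2-cell stage. Some factors of this activation come from stored RNA or protein, and others are products of the first wave that drive the next. Values here are TPM, a gene's share of the transcripts of its library after correction for gene length, so they can be compared between genes. A TPM holds stored and newly made RNA together, and the table has no separate measure of either. The factors are therefore ordered by their level in the zygote and by their change to the 2-cell embryo. Because TPM is a share, a change in the total RNA per embryo cannot be seen in it.

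The recovered depth ran from 8.48 M reads in ICSI 2-cell replicate 1 to 85.9 M reads in ROSI zygote replicate 2. Duxf3 had the fewest reads of the 10 factors at the 2-cell stage, between 5 and 56 per library. Zygote replicate 1 of ROSI and of ICSI stood apart from the other 3 zygote libraries, with 0.611% and 0.572% of TPM in small nuclear and nucleolar RNA against 1.64% to 2.58%. All 10 markers of oocyte and zygote reached 1 TPM in at least 1 library of every group. Protein-coding genes took 65.9% and 67.6% of TPM in ROSI zygotes and 71.2% to 71.6% in ICSI zygotes, without overlap. In 2-cell embryos they took 44.6% to 51.2% after ROSI and 46.6% to 51.4% after ICSI. The part of this composition in the differences between ROSI and ICSI zygotes was not tested. Differences are on the log2(TPM + 1) scale, which understates the change of low genes, and are given with the standard error (SE) of a limma fit over 21938 genes, with p-values adjusted over all of them. Whether replicates are separate cultures is not stated, and p-values therefore measure only how these libraries vary, which may be technical.

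Every factor changed between the zygote and the 2-cell embryo after both kinds of injection. After ICSI 7 factors rose and 3 fell, where 33% of all genes tested rose and 35% fell. After ROSI the count was also 7 higher and 3 lower, against 35.6% and 32.3% of all genes. The largest limma adjusted p among these changes was 0.00019, for Dppa2 after ICSI. Libraries of the 2 stages did not overlap for any factor, as for 34.9% of genes in the higher direction and 37.3% in the lower after ICSI, and for 40.2% and 35.9% after ROSI. The median change of the 10 factors was 1.50 after ICSI and 1.43 after ROSI, beside 0.00 and 0.19 over all genes. An unadjusted p under 0.05 was reached by all 10, and by 70.5% of all genes after each injection. Taken as a share of protein-coding TPM, the median over all genes moved to 0.39 and 0.56, and each factor kept its direction and its call.

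**Figure D1:**
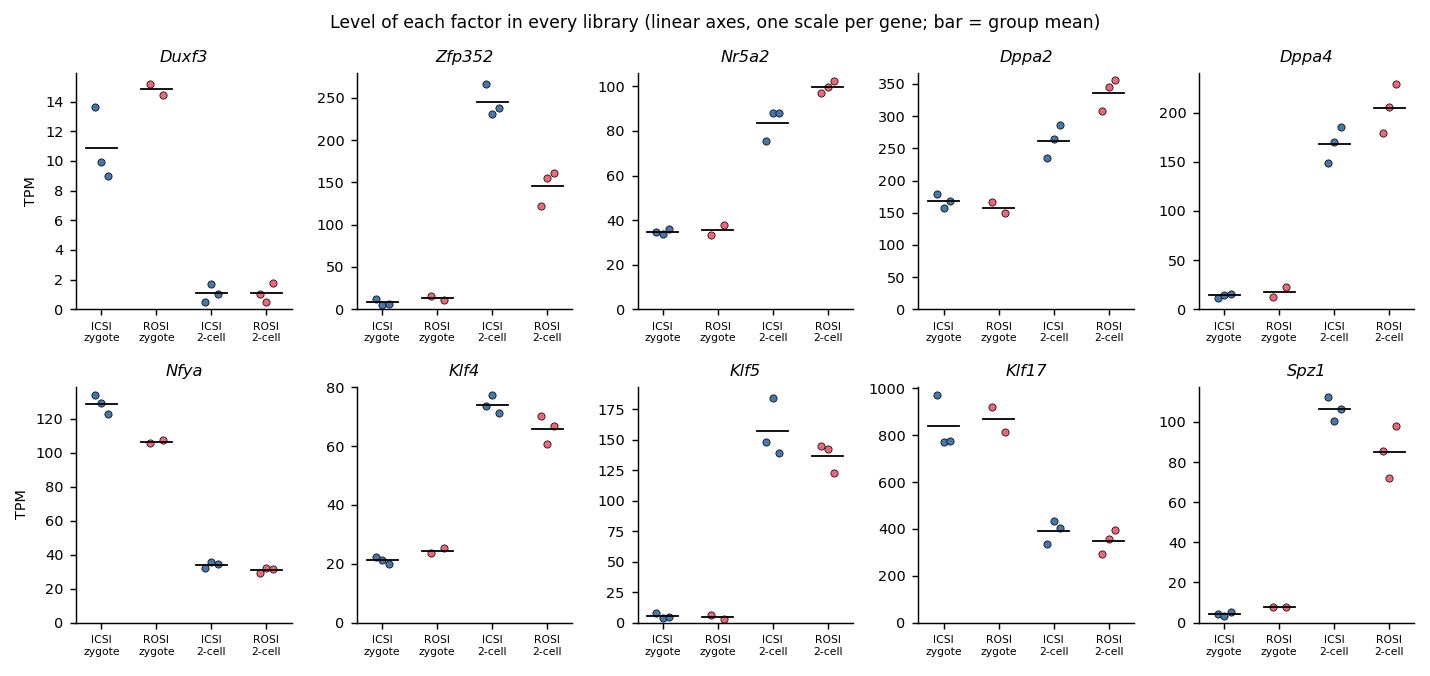
Level in TPM of each factor in every library, on a linear axis of its own. Points are libraries, black bars are group means, ICSI is blue and ROSI is red. Duxf3, Nfya and Klf17 were lower in every 2-cell library than in any zygote library, and the other 7 were higher.

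Zfp352, Klf5, Spz1 and Dppa4 had the largest rises, between 3.31 and 4.81. Zfp352 encodes a zinc-finger protein and is a target of Dux in the 2-cell program. Its gene spans chr4:90218820-90225702 on the forward strand (mm10, GENCODE M21). It stood at 15.2 and 10.4 TPM in the ROSI zygotes and at 12.5, 5.55 and 6.59 TPM in the ICSI zygotes. At the 2-cell stage it reached 123, 155 and 161 TPM after ROSI and 266, 231 and 238 TPM after ICSI. The zygote groups overlapped, and the ICSI 2-cell libraries all lay above the ROSI 2-cell libraries. The rise was 4.81 (SE 0.24) after ICSI and 3.43 (SE 0.27) after ROSI, or 29.8-fold and 11.4-fold as ratios of mean TPM.

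Klf5, a Krüppel-like factor that acts in both lineages of the blastocyst, spans chr14:99298691-99315036 on the forward strand. It was listed at 6.48 and 2.54 TPM in the ROSI zygotes and at 7.90, 3.80 and 4.20 TPM in the ICSI zygotes. The 2-cell libraries held 145, 142 and 123 TPM after ROSI and 148, 184 and 139 TPM after ICSI. The 2 kinds of embryo overlapped at both stages. The rise was 4.69 (SE 0.29) after ICSI and 4.74 (SE 0.32) after ROSI, or 29.6-fold and 30.3-fold as ratios of mean TPM. The ROSI ratio was 53.8-fold without ROSI zygote replicate 1 and 21.1-fold without ROSI zygote replicate 2.

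Spz1 encodes a basic helix-loop-helix zipper protein known from the testis, and its gene is a single exon at chr13:92574636-92576172 on the reverse strand. The zygote values were 7.77 and 7.52 TPM after ROSI and 4.06, 3.51 and 5.30 TPM after ICSI. The 2-cell values were 85.4, 71.9 and 98.2 TPM after ROSI and 112, 100.4 and 107 TPM after ICSI. ROSI libraries were the higher ones in zygotes and the lower ones at the 2-cell stage, without overlap at either. The rise was 4.36 (SE 0.14) after ICSI and 3.31 (SE 0.16) after ROSI, or 24.8-fold and 11.1-fold.

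Dppa4 encodes a chromatin protein with a SAP domain that works together with Dppa2 and is needed for normal expression of Dux in embryonic stem cells. It spans chr16:48283733-48294237, and Dppa2 lies beside it at chr16:48303908-48319723 on the same, forward strand. Dppa4 stood at 12.3 and 22.5 TPM in the ROSI zygotes and at 11.7, 14.6 and 15.9 TPM in the ICSI zygotes. It reached 179, 206 and 229 TPM in the ROSI 2-cell libraries and 149, 170 and 186 TPM in the ICSI 2-cell libraries. The ranges of ROSI and ICSI overlapped at both stages. The rise was 3.50 (SE 0.20) after ICSI and 3.53 (SE 0.22) after ROSI.

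Promoter windows of 250 bases before the annotated start were read from RefSeq (GRCm38.p6) for 7 of the 10 factors, and those of 2 factors that rose steeply are printed because they differ in the motifs they hold. Both strands were searched for CCAAT (bound by NF-Y, which contains Nfya), CACCC (bound by Krüppel-like factors), CAAGGTCA (bound by Nr5a2), the 11-letter motif of Dux and TAATCC (bound by homeobox proteins of the Obox and Otx kind). Capitals mark matches, which are a description of the letters and not evidence of binding.
Zfp352, chr4:90218570-90218819, forward strand: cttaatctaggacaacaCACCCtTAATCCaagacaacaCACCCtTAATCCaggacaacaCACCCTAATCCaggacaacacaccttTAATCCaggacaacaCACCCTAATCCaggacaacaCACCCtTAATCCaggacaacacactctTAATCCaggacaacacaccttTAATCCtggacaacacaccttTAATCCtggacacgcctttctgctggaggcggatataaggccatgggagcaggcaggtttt
Spz1, chr13:92576233-92576482, reverse strand: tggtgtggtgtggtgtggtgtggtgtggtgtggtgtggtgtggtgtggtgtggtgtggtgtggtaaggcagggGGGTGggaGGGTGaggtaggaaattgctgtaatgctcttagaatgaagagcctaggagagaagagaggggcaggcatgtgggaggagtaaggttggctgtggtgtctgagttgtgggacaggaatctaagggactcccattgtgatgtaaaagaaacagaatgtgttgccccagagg
The Zfp352 window is a tandem repeat with 9 copies of TAATCC and 5 of CACCC. Of the 32536 distinct windows of this length, 0.00307% held at least 9 copies of the first motif and 0.67% at least 5 of the second. The Spz1 window held 2 copies of CACCC and none of the other 4 motifs. At least 2 copies of CACCC were found in 21.2% of windows.

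Dppa2, Nr5a2 and Klf4 rose by less, between 0.63 and 1.76. Dppa2, the partner of Dppa4, had 167 and 149 TPM in the ROSI zygotes and 178, 157 and 169 TPM in the ICSI zygotes. In 2-cell embryos it had 309, 345 and 356 TPM after ROSI and 235, 265 and 286 TPM after ICSI. It had the second highest mean of the 10 factors in every group, though in ICSI 2-cell embryos its libraries overlapped with those of Zfp352. Every ROSI 2-cell library of Dppa2 lay above every ICSI 2-cell library. The rise was 0.63 (SE 0.10) after ICSI and 1.09 (SE 0.11) after ROSI, or 1.56-fold and 2.13-fold. Its size depended on the scaling, with 1.17 and 1.57 as a share of protein-coding TPM and 1.21 and 1.75 after quantile normalization.

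The partners came closer to each other between the stages. Dppa2 exceeded Dppa4 by 6.60 to 13.5 times in ROSI zygotes and by 10.6 to 15.3 times in ICSI zygotes. The ratio was 1.55 to 1.72 in ROSI 2-cell libraries and 1.54 to 1.58 in ICSI 2-cell libraries. ROSI and ICSI overlapped in this ratio at both stages.

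Nr5a2 encodes an orphan nuclear receptor whose motif is common in SINE B1 repeats and which opens chromatin in the early embryo. Its gene spans chr1:136842571-136960448 on the reverse strand. It held 33.1 and 37.7 TPM in ROSI zygotes and 34.7, 33.9 and 35.9 TPM in ICSI zygotes. It rose to 97.2, 99.9 and 102 TPM in ROSI 2-cell embryos and to 75.4, 87.9 and 87.9 TPM in ICSI 2-cell embryos. The zygote groups overlapped, and the ROSI 2-cell libraries all lay above the ICSI ones. The rise was 1.24 (SE 0.09) after ICSI and 1.47 (SE 0.10) after ROSI.

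Klf4, a pluripotency factor, spans chr4:55527143-55532466 on the reverse strand. It held 23.6 and 25.3 TPM in ROSI zygotes and 22.3, 21.4 and 20.1 TPM in ICSI zygotes. At the 2-cell stage it held 70.2, 60.8 and 66.7 TPM after ROSI and 73.6, 77.4 and 71.2 TPM after ICSI. Like Spz1, it was higher after ROSI in zygotes and lower after ROSI in 2-cell embryos, without overlap. The rise was 1.76 (SE 0.09) after ICSI and 1.39 (SE 0.10) after ROSI.

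Duxf3, Nfya and Klf17 fell. Duxf3 belongs to the Dux family of double-homeobox genes, which are transcribed briefly and activate genes and retrotransposons of the 2-cell program. It is annotated as a single exon at chr10:58229979-58232675 on the reverse strand, within a tandem array of near-identical copies, so its reads may belong to other copies. It stood at 15.2 and 14.4 TPM in ROSI zygotes and at 13.7, 9.95 and 9.01 TPM in ICSI zygotes. It stood at 0.998, 0.489 and 1.76 TPM in ROSI 2-cell embryos and at 0.490, 1.73 and 1.03 TPM in ICSI 2-cell embryos. The 2-cell groups overlapped almost fully, and ROSI zygotes lay above ICSI zygotes. The fall was -2.53 (SE 0.27) after ICSI and -2.97 (SE 0.30) after ROSI, and in ROSI embryos the mean was 13.7-fold lower at the 2-cell stage. Its related gene Duxbl1 stayed between 0.396 and 1.91 TPM in all libraries and passed in no comparison, and Duxbl3 was listed at 0 throughout.

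Nfya, the subunit of NF-Y that reads CCAAT together with the histone-fold subunits Nfyb and Nfyc, spans chr17:48386885-48409906 on the reverse strand. It held 106 and 107 TPM in ROSI zygotes and 134, 129 and 123 TPM in ICSI zygotes. It held 29.4, 32.0 and 31.7 TPM in ROSI 2-cell embryos and 32.3, 35.4 and 34.4 TPM in ICSI 2-cell embryos. ROSI libraries were the lower ones at both stages, without overlap. The fall was -1.89 (SE 0.08) after ICSI and -1.75 (SE 0.09) after ROSI.

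The other NF-Y subunits did not move as one. Nfyc fell by 1.23 (SE 0.09) after ICSI and by 1.31 (SE 0.10) after ROSI, and Nfyb rose by 0.50 (SE 0.16) and 0.84 (SE 0.18). Nfya went from 4.46 to 7.30 times the level of Nfyb in zygotes to 0.784 to 0.852 times in ROSI 2-cell embryos and 0.935 to 1.18 times in ICSI 2-cell embryos. The 2-cell ratio was lower in every ROSI library than in any ICSI library. Nfyc exceeded Nfya by 4.20 and 4.44 times in ROSI zygotes and by 3.15 to 3.58 times in ICSI zygotes, without overlap.

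Klf17, a Krüppel-like factor whose RNA is abundant in the oocyte, spans chr4:117757836-117765648 on the reverse strand. It had the highest mean of the 10 factors in every group, though in ROSI 2-cell embryos its libraries overlapped with those of Dppa2. It held 920 and 815 TPM in ROSI zygotes and 974, 773 and 777 TPM in ICSI zygotes. The levels were 293, 359 and 395 TPM in ROSI 2-cell embryos and 337, 432 and 403 TPM in ICSI 2-cell embryos. ROSI and ICSI overlapped at both stages. The fall was -1.10 (SE 0.14) after ICSI and -1.32 (SE 0.16) after ROSI. It was less steep as a share of protein-coding TPM (-0.57 and -0.84) and after quantile normalization (-0.37 and -0.42, with limma adjusted p of 0.0253 and 0.0222).

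Klf17 took a smaller share of the summed RNA of these 3 Krüppel-like factors in 2-cell embryos, and Klf4 and Klf5 larger ones. Klf17 made up 96.7% to 97.0% of the summed TPM of Klf4, Klf5 and Klf17 in zygotes and 57.7% to 67.6% in 2-cell embryos. Klf5 made up 0.301% to 0.787% of the sum in zygotes and averaged 24.9% in ROSI 2-cell embryos (SD 3.75, n = 3) and 25.2% in ICSI 2-cell embryos (SD 2.27, n = 3). Klf4 made up 2.22% to 3.01% in zygotes and 10.8% to 13.8% in 2-cell embryos. The sum itself was 798 to 1004 TPM in zygotes and 508 to 693 TPM in 2-cell embryos. The table of windows held Klf4, which rose, and Klf17, which fell, and both are printed to show which of the motifs each holds.
Klf4, chr4:55532476-55532725, reverse strand: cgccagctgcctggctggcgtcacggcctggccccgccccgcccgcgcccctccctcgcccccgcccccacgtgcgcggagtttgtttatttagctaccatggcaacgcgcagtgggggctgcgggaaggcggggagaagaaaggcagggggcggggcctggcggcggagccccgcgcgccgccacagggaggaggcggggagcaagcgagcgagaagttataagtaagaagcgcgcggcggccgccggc
Klf17, chr4:117765667-117765916, reverse strand: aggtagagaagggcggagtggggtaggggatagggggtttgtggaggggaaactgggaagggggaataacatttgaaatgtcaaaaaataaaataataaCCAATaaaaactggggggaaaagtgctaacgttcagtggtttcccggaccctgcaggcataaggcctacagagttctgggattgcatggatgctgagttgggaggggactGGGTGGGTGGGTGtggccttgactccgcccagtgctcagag
The Klf17 window held 3 overlapping copies of CACCC, read as GGGTG on the printed strand, and 1 CCAAT. At least 3 copies of CACCC were found in 6.96% of windows, and CCAAT in 33.8%. The Klf4 window held none of the 5 motifs searched.

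**Figure D2:**
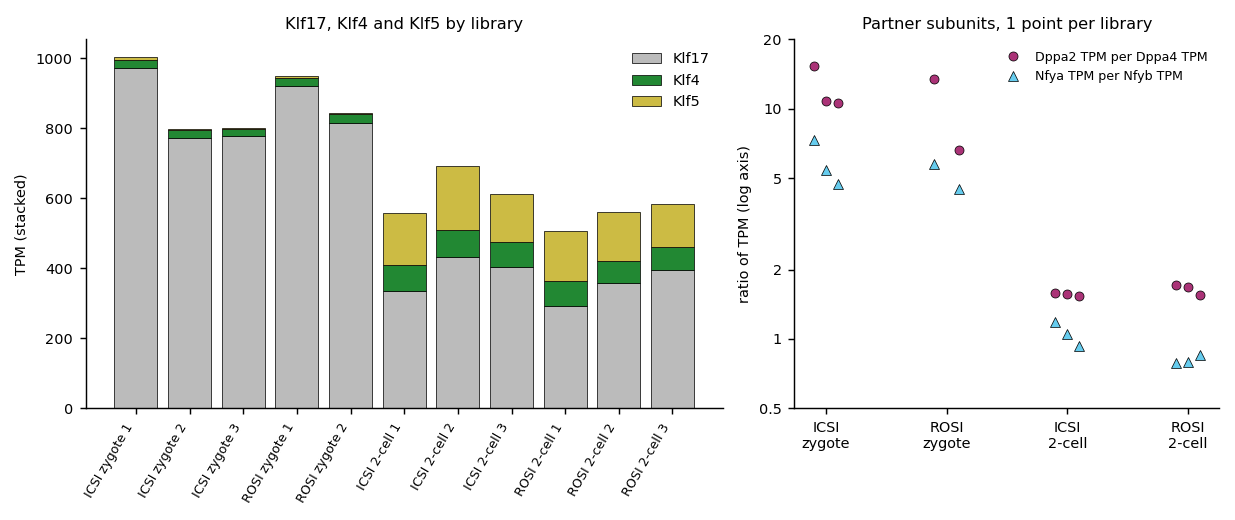
Left, stacked TPM of Klf17, Klf4 and Klf5 in each of the 11 libraries on a linear axis from 0. Right, Dppa2 per Dppa4 and Nfya per Nfyb as ratios of TPM on a log axis, 1 point per library. Klf17 took 96.7% or more of the sum in zygotes and at most 67.6% in 2-cell embryos, and both ratios were lower in every 2-cell library than in any zygote library.

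**Figure D3:**
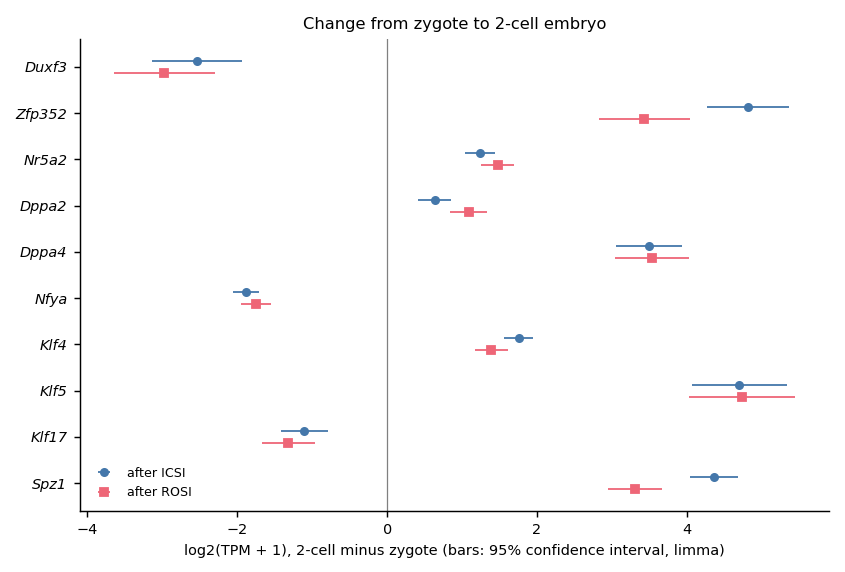
Change from zygote to 2-cell embryo for each factor on the log2(TPM + 1) scale, after ICSI (circles) and ROSI (squares), with 95% confidence intervals of the limma fit. No interval crosses 0. Zfp352 had 4.81 after ICSI and 3.43 after ROSI, and Spz1 had 4.36 and 3.31.

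None of the 10 factors passed between ROSI and ICSI zygotes in limma, where 0.114% of all genes were higher and 0.0319% lower. An unadjusted p under 0.05 was reached by Spz1 and Zfp352, which were higher after ROSI, and by Nfya, which was lower, as by 6.35% of all genes. Spz1 differed by 0.72 (SE 0.16, limma adjusted p = 0.140), Zfp352 by 0.63 (SE 0.27, limma adjusted p = 0.748) and Nfya by -0.27 (SE 0.09, limma adjusted p = 0.469). The ROSI libraries lay wholly above the ICSI libraries for Duxf3, Klf4 and Spz1 (6.97% of all genes) and wholly below for Nfya (19.4%). Duxf3 differed by 0.43, with a 95% interval from -0.24 to 1.10, and Klf4 by 0.20, from -0.02 to 0.42. The intervals of Nr5a2 (-0.20 to 0.25), Dppa2 (-0.34 to 0.16) and Klf17 (-0.30 to 0.40) were narrower than those of Dppa4 (-0.25 to 0.74) and Klf5 (-0.94 to 0.47). The median over the 10 factors was 0.12, beside -0.06 over all genes.

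The zygote libraries poor in small nuclear RNA, replicate 1 of each kind, stood apart from the other 3 in some of these factors. They were the higher ones for Zfp352, Klf5 and Klf17 and the lower ones for Dppa4. The share of all genes with such a split was not counted, and the split was drawn from these same libraries. Between ROSI and ICSI replicate 1 Zfp352 differed by 0.26, and among the other 3 libraries by 0.69. Duxf3 differed by 0.14 and 0.56 in the same order, Dppa4 by 0.07 and 0.54, and Klf4 by 0.08 and 0.28. Spz1 (0.79 and 0.68) and Nfya (-0.34 and -0.23) had like values in both. Each pair or set has 1 ROSI library, so these values carry no test.

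The summed level of spermatid markers was higher after ROSI at both stages and is set here beside Spz1, which is known from the testis. Of 14 markers tested, 6 were higher after ROSI in zygotes (0.114% of all genes) and 7 in 2-cell embryos (4.93% of all genes). None was lower in limma or at an unadjusted p under 0.05. Crisp2 averaged 11.6 TPM in ROSI and 0.0908 TPM in ICSI zygotes, and 8.55 and 0.0304 TPM in 2-cell embryos. Prm1, a protamine, averaged 3.56 TPM in ROSI and 0.482 TPM in ICSI zygotes. In 2-cell embryos Prm1 was near the floor, at 0, 0.216 and 0.259 TPM after ROSI and 0, 1.07 and 0 TPM after ICSI. The summed level of the 16 markers was 99.2 to 190 TPM in ROSI zygotes, 28.6 to 35.3 TPM in ICSI zygotes, 49.1 to 65.3 TPM in ROSI 2-cell embryos and 14.2 to 22.6 TPM in ICSI 2-cell embryos. Smcp, of the sperm mitochondrial capsule, was listed at 0 in all ICSI libraries and Tnp2 in the ICSI 2-cell libraries. Spz1 was 3.51 to 5.30 TPM in the ICSI zygotes, and at the 2-cell stage it was lower after ROSI, where the marker sum was higher. Markers of other testis cells, among them the meiotic genes Sycp1 and Sycp3, summed to 44.3 to 55.3 TPM in ROSI and 51.7 to 63.0 TPM in ICSI zygotes. In 2-cell embryos they summed to 200 to 211 TPM after ROSI and 155 to 165 TPM after ICSI, without overlap. Of 6 tested there, 1 was higher after ROSI and 0 lower (4.93% and 4.58% of all genes). It was Sycp3 (0.56, SE 0.13, limma adjusted p = 0.0248). The part of spermatid RNA in the zygote value of Spz1 was not tested.

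In 2-cell embryos 1 of the 10 factors passed, Dppa2, which was higher after ROSI (0.36, SE 0.10, limma adjusted p = 0.0480, a 1.29-fold ratio of mean TPM). Among all genes 4.93% were higher and 4.58% lower. None of the factors was lower at that threshold in limma, and 2, Zfp352 and Spz1, were lower at an unadjusted p under 0.05. Dppa2 and Nr5a2 were higher at that level, which 26.7% of all genes reached in either direction. The call of Dppa2 ended when any 1 library other than ROSI 2-cell replicate 1 or ICSI 2-cell replicate 3 was left out, with limma adjusted p up to 0.135 (without ICSI 2-cell replicate 1). When those named libraries were left out it was 0.0449 and 0.0467. The call also ended with a pseudocount of 0.1 (limma adjusted p = 0.0561), no filter on low values (0.0886), no variance trend (0.10), these 2 groups alone (0.133), array weights (0.0638) and a replicate block (0.0582). The 3 ROSI libraries lay above the 3 ICSI libraries in each case, and the difference was 0.29 to 0.43 over the omissions.

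Zfp352 had the largest difference in 2-cell embryos and did not pass. Mean levels were 146 TPM in ROSI embryos (SD 20.5, n = 3) and 245 TPM in ICSI embryos (SD 18.5, n = 3), a ratio of 0.596 and a difference of -0.75 (SE 0.24, limma adjusted p = 0.0805). It passed without ICSI zygote replicate 1 (limma adjusted p = 0.0228), a library that enters only through the shared estimate of spread, and without any other single library it had 0.0734 to 0.190. It also passed with median-ratio scaling (-0.82, limma adjusted p = 0.0372) and with a pseudocount of 5 (-0.73, limma adjusted p = 0.0348). Nr5a2 was higher by 0.25 (SE 0.09, limma adjusted p = 0.103), with a mean of 99.8 TPM (SD 2.64) against 83.7 TPM (SD 7.20). It passed after quantile normalization (0.32, limma adjusted p = 0.0201) and as a share of protein-coding TPM (0.30, limma adjusted p = 0.0325). Spz1 differed by -0.33 (SE 0.14, limma adjusted p = 0.175), with 85.2 TPM (SD 13.1) against 106 TPM (SD 5.91).

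Libraries of ROSI and ICSI 2-cell embryos did not overlap for Nr5a2 and Dppa2, which were higher after ROSI (15.4% of all genes), and for Zfp352, Nfya, Klf4 and Spz1, which were lower (11.8%). Klf4 differed by -0.17 (95% interval -0.36 to 0.03) and Nfya by -0.13 (-0.31 to 0.05). Duxf3 differed by -0.00, with an interval from -0.60 to 0.59 that rests on 5 to 56 reads per library. The intervals for Dppa4 (-0.16 to 0.72), Klf5 (-0.82 to 0.44) and Klf17 (-0.48 to 0.15) also held 0. The median over the factors was -0.15, beside 0.04 over all genes.

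**Figure D4:**
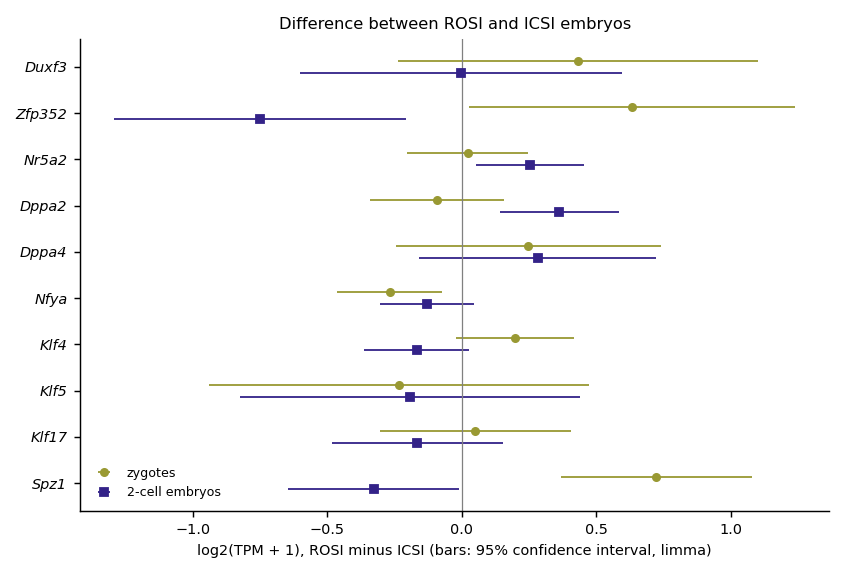
Difference between ROSI and ICSI embryos for each factor on the log2(TPM + 1) scale, in zygotes (circles) and 2-cell embryos (squares), with 95% confidence intervals of the limma fit. Intervals are not adjusted for the number of genes. Zfp352 and Spz1 lie to the right in zygotes (0.63 and 0.72) and to the left in 2-cell embryos (-0.75 and -0.33).

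The change from zygote to 2-cell embryo was then compared between ROSI and ICSI. None of the 10 factors passed in limma for the signed difference, ROSI minus ICSI. Of all genes, 0.0137% passed with a positive and 0.00456% with a negative difference. For a gene that fell, a negative difference is a steeper fall after ROSI. Among the factors 4 had an unadjusted p under 0.05, as did 15.1% of all genes. Spz1 rose less after ROSI by a difference of -1.05 (SE 0.21, limma adjusted p = 0.0915), and this passed when libraries were scaled by median ratios (-1.19, limma adjusted p = 0.0422). The other 3 were Zfp352 (-1.38, SE 0.37, limma adjusted p = 0.137), Klf4 (-0.37, SE 0.13, limma adjusted p = 0.240) and Dppa2 (0.45, SE 0.15, limma adjusted p = 0.202). Duxf3 had -0.44, with an interval from -1.33 to 0.46, and Nr5a2 and Klf17 had intervals that held 0, as had Dppa4, Klf5 and Nfya, whose values changed sign with the scaling. All 10 factors changed in the same direction after both injections, and the difference concerned only the size of the change.

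Most of the genes that Dux is known to activate rose to the 2-cell stage. Of 45 tested, 42 rose and 2 fell after ICSI, where 33% and 35% of all genes did. After ROSI 40 rose and 2 fell, against 35.6% and 32.3%. The medians were 4.01 after ICSI and 3.56 after ROSI. Between ROSI and ICSI 2-cell embryos 14 were lower, 2 were higher and the median was -0.57, beside 4.58% lower and 4.93% higher over all genes. Ddit4l averaged 14.5 TPM after ROSI and 28.1 TPM after ICSI (-0.92, SE 0.12), and Tcstv1 21.2 and 37.9 TPM (-0.83, SE 0.14). The exceptions were Btg1, an antiproliferative gene (0.78, SE 0.13), and Kdm4d, a demethylase of H3K9 (1.05, SE 0.18). Btg1 averaged 26.5 TPM after ROSI and 14.9 TPM after ICSI, and Kdm4d only 4.22 and 1.52 TPM. Kdm4d averaged 0.984 TPM in ROSI and 0.298 TPM in ICSI zygotes. In zygotes none of the 45 passed in limma. At an unadjusted p under 0.05, which 6.35% of all genes reached, there were 1 higher and 3 lower. The 10 markers of oocyte and zygote summed to 6301 to 7222 TPM in ROSI zygotes and 7586 to 8856 TPM in ICSI zygotes. They summed to 936 to 1124 TPM in ROSI and 1466 to 1492 TPM in ICSI 2-cell embryos. After ROSI 3 of the 10 were lower and none higher in limma in 2-cell embryos, where 4.58% and 4.93% of all genes were. In zygotes none passed, and 5 were lower at an unadjusted p under 0.05, which 6.35% of all genes reached in either direction. The part of stored oocyte RNA in the differences of the 10 factors and of the Dux target genes was not tested. Several of these genes, such as the Zscan4, Tcstv and Tdpoz families, have near-identical copies and their reads may be shared.

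Other activators of the zygotic genome, 43 in number, split in both directions. After ICSI 24 rose and 11 fell, where 33% and 35% of all genes did. After ROSI 24 rose and 13 fell, against 35.6% and 32.3%. Obox6, an oocyte-type homeobox gene, rose by 7.39 (SE 0.15) after ICSI, while its relatives Obox1 and Obox2 changed by -3.64 (SE 0.17) and -4.38 (SE 0.18). Between ROSI and ICSI 2-cell embryos 2 were higher and 5 lower, against 4.93% and 4.58% of all genes. Smarcad1, a chromatin remodeller, was higher by 0.87 (SE 0.10) and Nr1h3 by 0.90 (SE 0.22), whereas the pluripotency factor Pou5f1 (-0.73, SE 0.11) and Obox3 (-0.80, SE 0.20) were lower. Zscan4c and Zscan4d, both lower, stand in this list and among the target genes of Dux.

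Repressors of Dux, such as chromatin assembly factors and histone methyltransferases, moved in both directions, with 18 lower and 9 higher of 33 after ICSI (35% and 33% of all genes) and 17 lower and 12 higher after ROSI (32.3% and 35.6%). Dnmt1, the maintenance DNA methyltransferase, fell by 3.50 (SE 0.11) after ICSI and Chaf1a, of chromatin assembly factor 1, by 2.38 (SE 0.10), while the deacetylase Hdac1 rose by 3.71 (SE 0.11). Between ROSI and ICSI 2-cell embryos 3 were higher and 2 lower, beside the same 4.93% and 4.58% of all genes. Kdm1a, a demethylase of H3K4, was higher by 0.40 (SE 0.08) and Smchd1 by 0.46 (SE 0.10), while Max (-0.69, SE 0.13) and Lin28a (-0.52, SE 0.11) were lower.

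Among genes listed as relatives of the 10 factors, by family or only by name, 17 were tested. After ICSI 8 rose and 5 fell (33% and 35% of all genes), and after ROSI 9 rose and 5 fell (35.6% and 32.3%). Klf9 rose by 4.66 (SE 0.15) and Klf2 by 2.38 (SE 0.13) after ICSI, as Klf5 did, while Klf7 fell by 1.84 (SE 0.14), as Klf17 did. In 2-cell embryos 2 were higher after ROSI, Klf2 (0.54, SE 0.13) and Dppa5a (1.03, SE 0.19), where 4.93% of all genes were. Dppa5a was listed by its name and is not of the same protein family as Dppa2 and Dppa4. None of the 17 was lower in limma (4.58% of all genes). At an unadjusted p under 0.05, which 26.7% of all genes reached in either direction, 4 were higher and 2 lower.

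**Figure D5:**
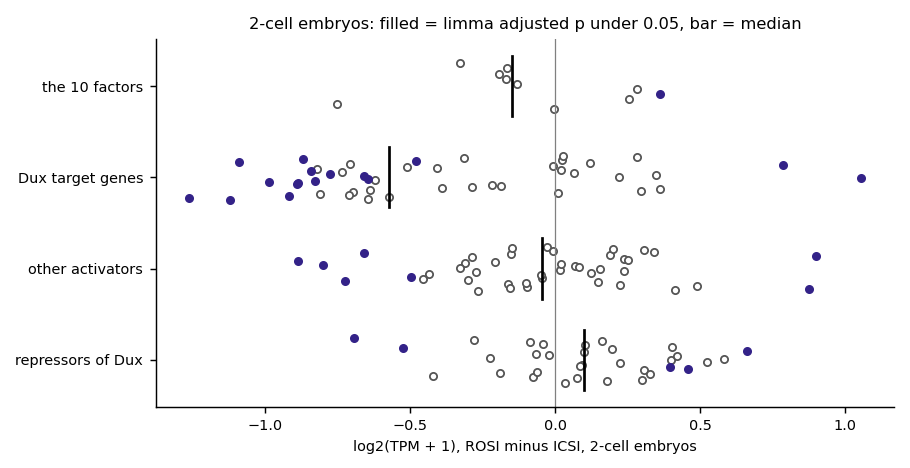
Difference between ROSI and ICSI 2-cell embryos on the log2(TPM + 1) scale for the 10 factors and for 3 lists of genes, 1 point per gene, with height set only to separate points. Filled points passed (limma adjusted p under 0.05) and bars are medians. The factors had 1 passing gene and a median of -0.15, and the target genes of Dux had 16 passing genes and a median of -0.57.

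The genes whose levels ran most like those of each factor over the 11 libraries were taken by Pearson r of log2(TPM + 1) among 9738 candidates. Each r is a description over libraries of both stages and of unlike depth, and so includes the change between the stages. Duxf3 was nearest to Cgn, Akap10 and Hexim2 and Nfya to Trim24, Jag1 and Serpine2, all of which were lower in 2-cell embryos. Zfp352 was nearest to Recql4, Zfp217 and Zfp54, and Zfp54 averaged 25.8 TPM in ROSI and 47.4 TPM in ICSI 2-cell embryos. Nr5a2 was nearest to Sike1, Tmem120a and Slc29a2, and Slc29a2 averaged 48.1 and 27.3 TPM in that order. Dppa2 was nearest to Cbfa2t2, Miga2 and Ascc3, and Dppa4 to Ruvbl1 and Polr2h. Klf4 was nearest to B4galt3, Terf2ip and Ficd, Klf5 to Capn15, Sp140 and Lctl, and Klf17 to Pkm, Camsap3 and Fam155a. Spz1 was nearest to Bag5, Hexim1 and Rbmx, and Bag5 averaged 134 TPM in ROSI and 184 TPM in ICSI 2-cell embryos. All r values lay at or above 0.99.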

How the data were processed

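The authors deposited TPM, 1 column per library, and every column was matched to its sample by title. Per the submitters' processing notes the tools were fastp, Bowtie2, STAR 2.7.4a and featureCounts with build mm10. Per the labels' protocols, 1 ng of total RNA, extracted with ISOGEN II, entered a stranded SMART-seq kit. The annotation and the strand setting are not given in the sources used here.

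Reads were recovered by scaling TPM times GENCODE M21 exon length. Of values up to 1000 reads, 86.2% to 89.4% in a library were whole to within 0.01. Reads came out whole for Duxf3, Zfp352, Nr5a2, Nfya, Klf4 and Klf17. Read numbers cover counting error only. The 21938 genes that reached 1 TPM in 2 or more libraries were tested on log2(TPM + 1) with limma 3.58.1 in R 4.3.3 (lmFit, contrasts.fit and eBayes with a trend). The model held 4 group means over all 11 libraries, and p-values were adjusted by Benjamini-Hochberg at 0.05. The script was tested on simulated data. Tables were made in python (3.11.15) and pandas (2.3.3), figures in matplotlib (3.10.9).

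All 10 factors were described in each comparison. Of each other list up to 2 genes per direction and comparison with the smallest p among those passing were picked. Predicted (Gm, Rik) and clone symbols were left out, and Nfyb, Nfyc and the Dux relatives were added. Not all of the genes picked are reported here. Prm1, Tnp2, Zscan4c and Zscan4d were named outside this rule. For each factor the 3 genes of highest r were named under the same exclusion, of which 1 is not reported here. The factors and lists were chosen with earlier results of these data known. Motifs were searched in RefSeq promoter windows of GRCm38.p6, given for 7 of the 10 factors. Alternatives were pseudocounts of 0.1 and 5, no filter or one of 5 TPM, median-ratio scaling, no variance trend, 2 groups alone, array weights, a replicate block and each library left out. Quantile normalization and the share of protein-coding TPM were added after seeing the data.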

Additional observations from a re-analysis of the deposited data

Results flagged for a closer look

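For Spz1 and Klf4 every ROSI library lay above every ICSI library in zygotes and below every ICSI library in 2-cell embryos. In zygotes alone 6.97% of all genes lay wholly above after ROSI, and in 2-cell embryos alone 11.8% lay wholly below. Both factors were picked by this crossing, and its share over all genes was not counted. The difference between the 2 contrasts was -1.05 for Spz1 (SE 0.21, limma adjusted p = 0.0915) and -0.37 for Klf4 (SE 0.13, limma adjusted p = 0.240), so neither passed.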

How the results depend on the processing

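All 20 changes of the 10 factors between zygote and 2-cell embryo passed in the same direction under every alternative run. The count of factors that passed between ROSI and ICSI 2-cell embryos, 1 as reported, was 0 with a pseudocount of 0.1, no filter on low values, no variance trend, these 2 groups alone, array weights or a replicate block. It was 2 with a pseudocount of 5, median-ratio scaling, quantile normalization or the share of protein-coding TPM, and 0 to 1 with each library left out. Dppa2 had limma adjusted p between 0.00262 and 0.135 over these alternatives. The count for the difference of stage changes, 0 as reported, was 1 with median-ratio scaling. No factor passed between zygotes under any alternative.

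Some values changed sign, and not all of them were near 0 in the main fit. The zygote differences of Dppa4 (0.25) and Klf5 (-0.24) both changed sign without ROSI zygote replicate 2. In zygotes Dppa2 went to 0.0188 with quantile normalization and 0.0032 with the protein-coding share. In 2-cell embryos Duxf3 went to 0.0243 with the protein-coding share and Klf17 to 0.0195 with quantile normalization. In the difference of stage changes Dppa4 was -0.12 with median-ratio scaling and -0.0196 with the protein-coding share, Nfya -0.0157 with median-ratio scaling and -0.0023 with quantile normalization, and Klf5 -0.0625 with a pseudocount of 5, -0.10 with median-ratio scaling and -0.12 with array weights. With each library left out the zygote difference ran from -0.0711 to 0.11 for Nr5a2, -0.16 to 0.66 for Dppa4, -0.78 to 0.30 for Klf5 and -0.037 to 0.16 for Klf17. The 2-cell difference of Duxf3 ran from -0.23 to 0.21, and the difference of stage changes from -0.37 to 0.45 for Dppa4 and -0.50 to 0.58 for Klf5. The causes were not tested.

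Not every pair of same-numbered libraries correlated over 0.1 (r from -0.04 to 0.33 over 15 pairs), so the numbers were not taken to pair the libraries. Of 11 libraries 7 correlated best with their own number, a hint from the data and not from the design. With the replicate block Dppa2 had a limma adjusted p of 0.0582 in 2-cell embryos, and Dppa4 had -0.0471 in the difference of stage changes. At 5 to 56 reads per 2-cell library, Duxf3 allows no statement on small differences at that stage.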
